A study of Homo sapiens with 12 samples.

Results

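The 38 genes described here are homologous recombination and Fanconi anaemia repair genes, chosen by name and matched exactly on the symbol column of the deposited table, which lists 19516 genes with a symbol. All 38 were found, and all 38 were among the 14133 genes with enough reads to be tested. Messenger RNA was sequenced from HCC1937 and MDA-MB-231, established human lines from triple-negative breast cancer, tumours without the hormone receptors and HER2 that targeted drugs act on. The series was set up around migration and invasion, so DNA repair is not its stated subject. Its 4 groups hold 3 libraries each: HCC1937 cells exposed for 72 h to 66 µg/mL of an aqueous extract of the succulent plant Kalanchoe pinnata, HCC1937 controls, MDA-MB-231 cells exposed for 72 h to 140 µg/mL of the same extract, and MDA-MB-231 controls. HCC1937 was grown in RPMI and MDA-MB-231 in DMEM, both with fetal bovine serum and antibiotics, so line, medium and extract concentration cannot be told apart. HCC1937 is known to carry a BRCA1 mutation, although the labels give the genotype WT for every sample. Groups were taken from the sample titles, because the cell line field counts upward from sample to sample. Nothing in the labels states whether the 3 libraries of a group came from separate cultures. The p-values therefore speak only of library-to-library spread, part or all of which may be technical.

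Homologous recombination repairs a broken chromosome by copying an intact sister chromatid, and is used mainly while DNA is being replicated or has just been replicated. The broken ends are sensed and cut back to single strands, BRCA1 and PALB2 bring BRCA2, and BRCA2 readies the single strands for the search for a matching sequence. The Fanconi pathway clears links between the strands by tagging FANCD2 and FANCI with ubiquitin and hands the resulting break to recombination. Breast tumours that have lost BRCA1 or BRCA2 are deficient in this repair and are sensitive to PARP inhibitors and platinum drugs.

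Library totals ran from 16170342 to 31337259 counts, of which 10651 to 51462 fell on the 38 genes. Values are given in CPM, that is counts divided by library size after scaling by TMM, which assumes that most genes did not change, so a rise or fall is relative to the bulk of genes. Of the MDA-MB-231 extract libraries, replicate 7 (E7) stood apart: mitochondrial genes took 10.7% of its counts, against 4.63% in E8 and 4.78% in E9. The biological coefficient of variation of that group was 0.296, against 0.0415 to 0.0451 in the other 3 groups. The model used below estimates a single spread per gene over all 12 libraries. The spread that E7 adds therefore enters the SE and p-values of every comparison, also those without MDA-MB-231 extract libraries. CDKN2A, known to be deleted in MDA-MB-231, had no reads in MDA-MB-231 libraries and averaged 160 CPM in HCC1937 controls. The epithelial gene CDH1 averaged 186 CPM in HCC1937 controls and had no reads in MDA-MB-231. Receptor transcripts were not all absent. ERBB2, the gene of HER2, averaged 148 CPM in HCC1937 with extract and 146 CPM in controls. In MDA-MB-231 it averaged 73.6 CPM with extract and 51.5 CPM in controls. The hormone receptor gene ESR1 averaged 2.02 CPM in HCC1937 with extract and 7.19 CPM in controls, and was near 0 in MDA-MB-231. PGR, another, averaged 0.447 CPM in MDA-MB-231 with extract and 2.88 CPM in controls, and was near 0 in HCC1937. Of markers of other cell types, those of leukocytes PTPRC, CD3E and LYZ, of fibroblasts DCN, COL1A2, COL3A1 and PDGFRA, and of adipocytes ADIPOQ and PLIN1 were at or near 0 in every group. The lysosomal and macrophage gene CD68 was not: it averaged 177 CPM in HCC1937 with extract and 62.8 CPM in controls, and 461 CPM in MDA-MB-231 with extract and 308 CPM in controls. COL1A1 averaged 6.62 CPM in HCC1937 with extract and 18.8 CPM in controls, and 5.78 CPM in MDA-MB-231 with extract and 21.3 CPM in controls, and LUM 0.879 CPM in HCC1937 with extract and 11.2 CPM in controls, with LUM at or near 0 in MDA-MB-231. The endothelial markers averaged 8.94 CPM (PECAM1), 7.07 CPM (CDH5) and 2.37 CPM (VWF) in HCC1937 with extract, against 12.7, 9.84 and 1.64 CPM in controls, and in MDA-MB-231 the highest of their group means was 0.931 CPM. The part of other cells in the repair gene results was not tested.

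With extract, the repair genes separated along the base composition of their transcripts, so sequences of 2 members that fell and 2 that rose are shown first. Each is the middle 120 bases of the gene's longest coding exon (GENCODE 29, build GRCh38, written 5′ to 3′ on the coding strand), with G and C in capitals. RAD50 and RIF1 are among the members that fell most, XRCC3 and FANCE are among those that rose.
RAD50, chr5:132595632-132595751, plus strand: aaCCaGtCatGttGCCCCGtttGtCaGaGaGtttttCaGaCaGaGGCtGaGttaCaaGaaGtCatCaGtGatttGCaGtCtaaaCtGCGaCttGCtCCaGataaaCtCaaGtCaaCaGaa
RIF1, chr2:151464442-151464561, plus strand: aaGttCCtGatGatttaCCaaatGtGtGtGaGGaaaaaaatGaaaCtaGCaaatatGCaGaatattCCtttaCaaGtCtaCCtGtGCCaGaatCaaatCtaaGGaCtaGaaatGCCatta
XRCC3, chr14:103698850-103698969, minus strand: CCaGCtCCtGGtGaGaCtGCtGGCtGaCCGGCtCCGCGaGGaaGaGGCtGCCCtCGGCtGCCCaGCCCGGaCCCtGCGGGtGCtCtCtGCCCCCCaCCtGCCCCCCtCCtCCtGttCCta
FANCE, chr6:35455990-35456109, plus strand: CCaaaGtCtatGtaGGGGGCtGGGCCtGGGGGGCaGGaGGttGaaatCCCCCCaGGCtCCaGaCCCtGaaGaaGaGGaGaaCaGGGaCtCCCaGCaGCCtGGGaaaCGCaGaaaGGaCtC
G and C make up 43.3% of the RAD50 window, 34.2% of the RIF1 window, 71.7% of the XRCC3 window and 60.8% of the FANCE window. Over the longest protein-coding transcript the same genes hold 41.4%, 37.3%, 62.5% and 58.0% GC, so that RAD50 lies close to the median of the 38, which is 42.5%.

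The first question was which repair transcripts changed with the extract in each line. Most fell. In HCC1937, 27 of the 38 members fell, 6 rose and 5 did not pass the test, and the median log2 fold change was -1.57 over the members and -0.16 over all genes tested. In MDA-MB-231, 26 fell, 7 rose and 5 did not pass, with a median of -0.93 over the members and 0 over all genes tested. Of all genes tested, 39.1% fell and 32.7% rose in HCC1937, and 32.8% fell and 33% rose in MDA-MB-231. Here and below, rose and fell mean an adjusted p under 0.05 in edgeR's quasi-likelihood test with Benjamini-Hochberg adjustment over all genes tested. Together the members held 806 ± 8.62 CPM in HCC1937 with extract, against 1638 ± 57.0 CPM in HCC1937 controls. In MDA-MB-231 they held 876 ± 103 CPM with extract, against 1551 ± 59.8 CPM in controls (SD, n = 3 in each group). In bulk samples, fewer cells that transcribe a gene and less of its RNA per cell cannot be told apart.

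The same 25 members fell in both lines, and RAD51D, XRCC3, FANCE and FANCG rose in both. The share of all genes tested that was called the same way in both lines was not counted. Agreement of the lines in these members therefore has no measure over all genes beside it. RAD54L rose in HCC1937 and fell in MDA-MB-231, MDC1 rose in HCC1937 and did not pass in MDA-MB-231, and RAD51C, FANCC and FANCF rose in MDA-MB-231 and did not pass in HCC1937. RAD52 and SLX4 fell in HCC1937 and did not pass in MDA-MB-231, and RAD51B and FANCA passed in neither line. In HCC1937 the 3 extract libraries lay entirely below the 3 controls for 28 members, entirely above for 6, and overlapped for 4, while 43.8% of all genes tested lay below and 38.3% above. In MDA-MB-231, 29 members lay below, 7 above and 2 overlapped, against 35.2% and 32.5% of all genes. The directions depended on how composition was treated. When the trend of each library's counts over transcript length and GC content was taken out by an offset, so that a fold is relative to genes of like composition, 23 members fell and 7 rose in HCC1937 (34.4% and 33.2% of all genes in that fit), and 23 fell and 9 rose in MDA-MB-231 (31.5% and 33.7% of all genes). With coding length and coding GC content in place of those of the transcript, 11 members fell and 14 rose in HCC1937 (33.9% and 33.4% of all genes), and 10 fell and 20 rose in MDA-MB-231 (30.5% and 33.3% of all genes). Members called in the same direction in both lines in all 3 fits were MRE11, RAD50, NBN, XRCC2 and FANCL, which fell, and XRCC3, which rose. For this list, too, the share over all genes was not counted.

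**Figure D1:**
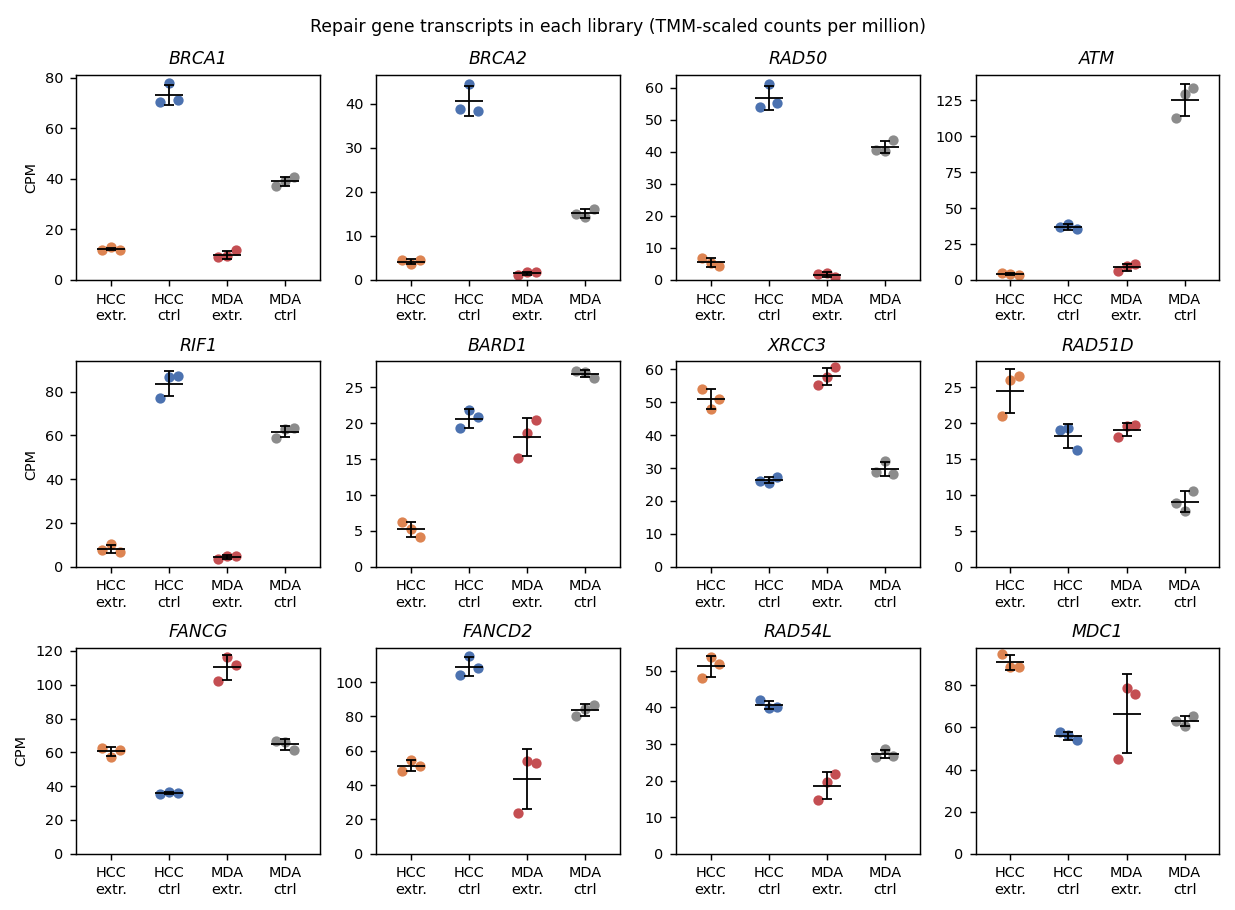
TMM-scaled CPM (vertical axes, starting at 0) of 12 repair genes in each library (points), with the mean and SD of each group (bars, n = 3). BRCA1, BRCA2, RAD50, ATM and RIF1 lie far lower with extract in both lines, while XRCC3 and FANCG lie higher. Once coding length and GC are taken out, the fall turns into a rise for BRCA1 in MDA-MB-231 and for BRCA2 in each line. ATM and RIF1 then pass in neither line, while RAD50 still falls in each. In FANCD2 and MDC1 the lowest point of MDA-MB-231 extract is E7.

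BRCA1 and its partners fell together. All 4 members of this group fell in each line, with a median log2 fold change of -2.28 in HCC1937 and -1.35 in MDA-MB-231. After the transcript offset 3 fell in HCC1937, and 3 fell and BARD1 rose in MDA-MB-231, while after the coding offset BARD1 fell and BRCA2 rose in HCC1937, and all 4 rose in MDA-MB-231. BRCA1, a ubiquitin ligase that directs break repair toward recombination (chr17:43044295-43170245, minus strand), had 11.9, 12.9 and 12.0 CPM in HCC1937 with extract, against 70.4, 77.8 and 71.3 CPM in HCC1937 controls. In MDA-MB-231 it had 8.89, 9.32 and 11.9 CPM with extract, against 37.2, 39.1 and 40.9 CPM in controls. The groups did not overlap in either line, and the extract libraries of both lines came to similar levels although the controls differed. The log2 fold change was -2.57 ± 0.11 in HCC1937 (SE, adjusted p = 4.13e-09, edgeR) and -1.96 ± 0.11 in MDA-MB-231 (adjusted p = 3.58e-08). Gene counts hold no sequence, so the BRCA1 mutation of HCC1937 was not examined in its transcripts.

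BARD1, the obligate partner that forms the active ligase with BRCA1, had 6.27, 5.22 and 4.11 CPM in HCC1937 with extract, against 19.3, 21.8 and 20.9 CPM in controls, a fold change of -1.99 ± 0.15 on the log2 scale (adjusted p = 2.55e-07, edgeR). In MDA-MB-231 it had 15.2, 18.6 and 20.4 CPM with extract, against 27.3, 27.2 and 26.3 CPM in controls (-0.57 ± 0.14, adjusted p = 0.00374, edgeR). All libraries with extract lay below all controls in each line, and the fall was far larger in HCC1937. PALB2, the bridge between BRCA1 and BRCA2, averaged 8.15 ± 0.720 CPM in HCC1937 with extract and 28.4 ± 3.32 CPM in HCC1937 controls, against 6.39 ± 0.410 CPM in MDA-MB-231 with extract and 10.7 ± 0.635 CPM in MDA-MB-231 controls. BRCA2, which PALB2 brings to resected DNA (chr13:32315474-32400266, plus strand), had 4.45, 3.54 and 4.53 CPM in HCC1937 with extract, against 38.9, 44.5 and 38.5 CPM in controls. In MDA-MB-231 it had 1.14, 1.73 and 1.70 CPM with extract, against 15.1, 14.2 and 16.2 CPM in controls. The fall of BRCA2 was of like size in both lines, 9.72-fold in HCC1937 (log2 -3.28 ± 0.14, adjusted p = 3.92e-09, edgeR) and 9.68-fold in MDA-MB-231 (log2 -3.27 ± 0.16, adjusted p = 1.02e-08). Taking out coding length and GC reversed it in each line, to 0.42 in HCC1937 and 1.1 in MDA-MB-231.

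RAD51B, RAD51C, RAD51D, XRCC2 and XRCC3, which work in shared complexes in recombination, were split. In HCC1937, 2 of 5 rose and 1 fell, and in MDA-MB-231, 3 rose and 1 fell. On the transcript offset 4 rose and 1 fell in HCC1937, and 3 rose and 1 fell in MDA-MB-231, and with the coding offset 3 rose and 1 fell in each line. XRCC3 (chr14:103697609-103715504, minus strand), which pairs with RAD51C, had 54.0, 48.0 and 50.8 CPM in HCC1937 with extract, against 26.1, 25.4 and 27.3 CPM in controls. In MDA-MB-231 it had 55.3, 57.6 and 60.6 CPM with extract, against 28.9, 32.1 and 28.0 CPM in controls. No libraries overlapped, and the rise was nearly the same in both lines, 0.95 ± 0.08 in HCC1937 (adjusted p = 8.83e-07, edgeR) and 0.96 ± 0.08 in MDA-MB-231 (adjusted p = 1.17e-06) on the log2 scale. RAD51D, which joins XRCC2 to its complex, had 20.9, 26 and 26.5 CPM in HCC1937 with extract, against 19.1, 19.3 and 16.2 CPM in controls. In MDA-MB-231 it had 18.0, 19.6 and 19.7 CPM with extract, against 8.88, 7.71 and 10.6 CPM in controls. Its rise was 0.43 ± 0.13 in HCC1937 (adjusted p = 0.0108, edgeR), where it lost the call without E27 (0.35, adjusted p = 0.0514), and 1.08 ± 0.14 in MDA-MB-231 (adjusted p = 2.8e-05). The HCC1937 value of RAD51D was -0.19 with the coding offset.

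XRCC2, the partner of RAD51D, was the member of this group that fell. It had 5.91, 4.58 and 6.45 CPM in HCC1937 with extract, against 24.0, 23.4 and 23.5 CPM in controls, and 4.55, 4.18 and 4.43 CPM in MDA-MB-231 with extract, against 7.89, 8.54 and 8.53 CPM in controls. The levels with extract were close in the lines although controls of HCC1937 started higher, and the log2 fold change was -2.06 ± 0.12 in HCC1937 (adjusted p = 3.32e-08, edgeR) and -0.93 ± 0.13 in MDA-MB-231 (adjusted p = 5.84e-05). RAD51C, shared by both complexes, had 15.5, 16.9 and 18.1 CPM in HCC1937 with extract, against 20.9, 19.1 and 19.0 CPM in controls, with a value of -0.22 ± 0.21 that did not pass (adjusted p = 0.363, edgeR). When E7 was left out of the fit, that value was -0.20 and was called (adjusted p = 0.0305). In MDA-MB-231 RAD51C had 43.2, 21.6 and 23.4 CPM with extract, against 16.8, 17.6 and 17.8 CPM in controls, a rise of 0.75 ± 0.21 (adjusted p = 0.0086, edgeR). The highest of these values is E7, and without E7 the rise was 0.38 (adjusted p = 0.000647, edgeR). RAD51B averaged 10.1 ± 2.19 CPM in HCC1937 with extract and 9.25 ± 1.28 CPM in controls, against 6.45 ± 0.655 and 7.80 ± 0.269 CPM in MDA-MB-231 with extract and controls.

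Of the annealing factor and the motor proteins of strand invasion, 2 of 3 fell in each line and 1 rose in HCC1937. After the transcript offset 2 fell and none rose in each line, and after the coding offset 1 fell and 2 rose in HCC1937 and 2 fell and 1 rose in MDA-MB-231. RAD52, which anneals single strands, had 11.9, 10.6 and 11.8 CPM in HCC1937 with extract, against 29.1, 28.6 and 26.9 CPM in controls (log2 -1.30 ± 0.13, adjusted p = 1.9e-06, edgeR). In MDA-MB-231 RAD52 had 11.2, 16.2 and 15.6 CPM with extract, against 17.1, 16.5 and 17.1 CPM in controls (-0.23 ± 0.13, adjusted p = 0.124, edgeR). RAD54L, a DNA translocase that helps a strand invade the intact duplex, moved in opposite directions. It had 48.0, 53.8 and 51.9 CPM in HCC1937 with extract, against 42, 40.0 and 40.0 CPM in controls (0.33 ± 0.12, adjusted p = 0.0267, edgeR). In MDA-MB-231 RAD54L had 14.6, 19.6 and 21.8 CPM with extract, against 26.4, 28.5 and 26.9 CPM in controls (-0.54 ± 0.12, adjusted p = 0.00238, edgeR). Its HCC1937 call was lost when E26, E27, E32 or E33 was left out (0.32 to 0.35, adjusted p 0.051 to 0.073), and with the transcript offset that value was -0.16. The related RAD54B fell in each line, by 2.04 ± 0.15 in HCC1937 and by 0.93 ± 0.14 in MDA-MB-231 on the log2 scale, while with the coding offset it rose by 0.51 in HCC1937 and 1.55 in MDA-MB-231.

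Of end sensing and resection, all 7 members fell in each line, with a median log2 fold change of -2.48 in HCC1937 and -2.25 in MDA-MB-231. Relative to genes of like transcripts 6 fell and EXO1 rose in HCC1937, and 5 fell and none rose in MDA-MB-231. Relative to genes of like coding sequence 3 fell and 1 rose in HCC1937, and 4 fell and 3 rose in MDA-MB-231. RAD50, the coiled-coil ATPase of the MRE11, RAD50 and NBN complex that first binds broken ends (chr5:132556019-132646344, plus strand), had 6.84, 5.18 and 4.30 CPM in HCC1937 with extract, against 53.9, 61.0 and 55.2 CPM in controls. In MDA-MB-231 it had 1.92, 2.30 and 0.805 CPM with extract, against 40.6, 40.3 and 43.6 CPM in controls, where 3 counts correspond to 0.115 to 0.213 CPM in these extract libraries. This was the largest change among the members, a 24.7-fold fall in MDA-MB-231 (log2 -4.63 ± 0.27, adjusted p = 4.55e-08, edgeR) and a 10.4-fold fall in HCC1937 (-3.38 ± 0.24, adjusted p = 1.27e-07).

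MRE11, the nuclease of that complex, had 7.12, 6.67 and 7.17 CPM in HCC1937 with extract, against 28.7, 34.9 and 32.4 CPM in controls. In MDA-MB-231 MRE11 had 12.1, 12.1 and 12.4 CPM with extract, against 59.5, 57.2 and 57.1 CPM in controls. The fall was alike in both lines, -2.20 ± 0.09 in HCC1937 (adjusted p = 3.46e-09, edgeR) and -2.25 ± 0.09 in MDA-MB-231 (adjusted p = 2.75e-09) on the log2 scale. NBN, which ties the complex to ATM signalling, had 11.2, 11.3 and 10.1 CPM in HCC1937 with extract, against 69.6, 77.4 and 79.6 CPM in controls. In MDA-MB-231 NBN had 7.54, 9.48 and 12.0 CPM with extract, against 77.3, 81.4 and 86.4 CPM in controls. Its log2 fold change was -2.80 ± 0.14 in HCC1937 (adjusted p = 1.08e-08, edgeR) and -3.07 ± 0.15 in MDA-MB-231 (adjusted p = 8.46e-09). All 3 subunits stayed below their controls with either offset, the smallest value being -0.22 for MRE11 in HCC1937 with the coding offset.

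RBBP8, also called CtIP, which starts the cutting together with MRE11, fell by 2.48 ± 0.11 in HCC1937 and by 2.57 ± 0.11 in MDA-MB-231. BLM, a helicase of long-range resection, fell by 2.64 ± 0.16 in HCC1937 and by 1.94 ± 0.16 in MDA-MB-231. DNA2, the nuclease that works with BLM, fell by 2.26 ± 0.18 in HCC1937 and by 1.51 ± 0.17 in MDA-MB-231. BLM rose by 0.67 in MDA-MB-231 with the coding offset, and DNA2 then stood at 0.065 in HCC1937 and 0.73 in MDA-MB-231. EXO1, the exonuclease of the alternative resection route, fell least, by 0.56 ± 0.10 in HCC1937 and by 0.34 ± 0.10 in MDA-MB-231. Its MDA-MB-231 call was lost without E2 (-0.28, adjusted p = 0.053, edgeR), and both values turned positive with either offset.

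The checkpoint kinases and TOPBP1 fell in both lines. All 5 fell in each, with medians of -2.53 in HCC1937 and -2.43 in MDA-MB-231 on the log2 scale. After the transcript offset 4 fell and CHEK1 rose in each line. After the coding offset 2 fell and 2 rose in HCC1937, and 1 fell and 1 rose in MDA-MB-231. ATM, the kinase activated by breaks (chr11:108222484-108369102, plus strand), had 4.57, 4.14 and 3.43 CPM in HCC1937 with extract, against 36.9, 39.1 and 35.1 CPM in controls. In MDA-MB-231 ATM had 6.33, 9.44 and 11.2 CPM with extract, against 113, 130 and 134 CPM in controls. The fall was 9.15-fold in HCC1937 (log2 -3.19 ± 0.18, adjusted p = 2.74e-08, edgeR) and 13.8-fold in MDA-MB-231 (-3.79 ± 0.18, adjusted p = 9.37e-09), and the groups were far apart in each line. With the transcript offset ATM fell by 1.17 in HCC1937 and by 1.87 in MDA-MB-231, and with the coding offset it passed in neither line, at -0.052 in HCC1937 (adjusted p = 0.678, edgeR) and -0.19 in MDA-MB-231 (adjusted p = 0.0974).

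ATR, the kinase activated by single-stranded DNA at stalled forks, fell by 2.53 ± 0.12 in HCC1937 and by 2.65 ± 0.13 in MDA-MB-231. TOPBP1, its activator, had 19.0, 24.9 and 20.7 CPM in HCC1937 with extract, against 126, 135 and 130 CPM in controls, and 10.7, 15.3 and 16.3 CPM in MDA-MB-231 with extract, against 69.6, 81.3 and 79.1 CPM in controls. The effector kinases moved least. CHEK1, the main target of ATR, averaged 35.1 ± 3.61 CPM in HCC1937 with extract and 63.1 ± 4.05 CPM in controls, against 45.0 ± 4.72 CPM in MDA-MB-231 with extract and 59.3 ± 3.36 CPM in controls. CHEK2, the main target of ATM, averaged 26 ± 0.998 CPM in HCC1937 with extract and 35.6 ± 0.358 CPM in controls, against 10.4 ± 0.796 CPM in MDA-MB-231 with extract and 18.4 ± 0.788 CPM in controls. The HCC1937 value of CHEK2 turned positive with the coding offset, at 0.28, and ATR turned positive in each line, at 0.34 in HCC1937 and 0.56 in MDA-MB-231.

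The Fanconi core complex, the ubiquitin ligase of the pathway, divided by subunit. In HCC1937, FANCE and FANCG rose, FANCL and FANCM fell and 3 did not pass, and in MDA-MB-231, FANCC, FANCE, FANCF and FANCG rose, FANCL and FANCM fell and FANCA did not pass. With transcript composition taken out 3 fell and none rose in HCC1937, and 3 fell and 4 rose in MDA-MB-231. With coding composition taken out 2 fell and 2 rose in HCC1937, and 1 fell and 4 rose in MDA-MB-231. FANCG, a scaffold subunit (chr9:35073835-35080016, minus strand), had 62.7, 57.5 and 61.6 CPM in HCC1937 with extract, against 35.4, 36.5 and 35.9 CPM in controls (log2 0.75 ± 0.08, adjusted p = 3.84e-06, edgeR). In MDA-MB-231 FANCG had 102, 117 and 112 CPM with extract, against 67, 66.1 and 61.1 CPM in controls (0.77 ± 0.08, adjusted p = 4.2e-06, edgeR). FANCE, the subunit that contacts FANCD2, averaged 19.9 ± 1.45 CPM in HCC1937 with extract and 13.2 ± 0.723 CPM in controls, against 52.1 ± 8.31 CPM in MDA-MB-231 with extract and 29.6 ± 1.42 CPM in controls. FANCE reversed in HCC1937 with the transcript offset, to -0.13.

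FANCL, the catalytic ubiquitin ligase subunit, had 11.4, 11.3 and 10.6 CPM in HCC1937 with extract, against 53, 57.5 and 59.8 CPM in controls (log2 -2.35 ± 0.17, adjusted p = 1.81e-07, edgeR). In MDA-MB-231 FANCL had 14.1, 9.25 and 7.83 CPM with extract, against 23.8, 26.1 and 27.9 CPM in controls (-1.34 ± 0.17, adjusted p = 2.95e-05, edgeR). FANCL has the shortest transcript of the 38, 1698 nt, and 39.3% GC, and it stayed down with both offsets. FANCM, the translocase that anchors the core complex to DNA, fell by 2.97 ± 0.23 in HCC1937 and by 2.58 ± 0.23 in MDA-MB-231, and stood at 0.14 in HCC1937 and 0.94 in MDA-MB-231 with the coding offset. FANCF, an adaptor subunit, averaged 5.75 ± 0.363 CPM in HCC1937 with extract and 5.47 ± 0.339 CPM in controls, while in MDA-MB-231 it averaged 7.06 ± 0.388 CPM with extract and 4.10 ± 0.619 CPM in controls. FANCC likewise passed in MDA-MB-231 alone, with 31.5 ± 2.07 CPM in HCC1937 with extract and 30.1 ± 1.85 CPM in controls, and 33.1 ± 3.45 CPM in MDA-MB-231 with extract and 20.3 ± 0.706 CPM in controls. FANCA, another subunit, had a value of -0.04 ± 0.11 in HCC1937 and -0.16 ± 0.11 in MDA-MB-231, with overlapping libraries in each line.

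Downstream of the core, all 4 effectors fell in HCC1937 and 3 of 4 in MDA-MB-231. The transcript offset left 3 falling in HCC1937 and 4 in MDA-MB-231, and with the coding offset 1 fell and 2 rose in HCC1937, and 1 fell and 3 rose in MDA-MB-231. FANCI, the partner of FANCD2 in the ubiquitinated pair, had 21.6, 19.6 and 18.9 CPM in HCC1937 with extract, against 51.2, 49.5 and 50.3 CPM in controls (log2 -1.33 ± 0.09, adjusted p = 1.56e-07, edgeR). In MDA-MB-231 FANCI had 51.5, 61.7 and 62.2 CPM with extract, against 122, 132 and 136 CPM in controls (-1.15 ± 0.09, adjusted p = 6.16e-07, edgeR). FANCD2 had 48.3, 54.8 and 50.9 CPM in HCC1937 with extract, against 104, 115 and 108 CPM in controls (-1.09 ± 0.23, adjusted p = 0.00119, edgeR). In MDA-MB-231 FANCD2 had 23.6 CPM in E7 and 54.3 and 53 CPM in the other extract libraries, against 80.3, 84.0 and 86.8 CPM in controls (-0.93 ± 0.23, adjusted p = 0.00387, edgeR, and -0.64 without E7). BRIP1, the BRCA1-binding helicase also called FANCJ, fell by 2.78 ± 0.14 in HCC1937 and by 2.02 ± 0.14 in MDA-MB-231. SLX4, the scaffold for nucleases that cut joined DNA, had 20.2, 22.6 and 22.4 CPM in HCC1937 with extract, against 35.3, 37.1 and 34.7 CPM in controls (-0.71 ± 0.28, adjusted p = 0.036, edgeR). This call was lost when any of 7 libraries was left out (E2, E25, E26, E27, E31, E32 or E33, with values of -0.64 to -0.73 and adjusted p 0.0502 to 0.109). The lowest adjusted p with 1 library left out was 1.03e-08 (edgeR). The SE of this HCC1937 value includes the spread that E7 adds in MDA-MB-231. In MDA-MB-231 SLX4 had 8.75 CPM in E7 and 25.7 and 22.9 CPM in the others, against 26.3, 31.6 and 34.6 CPM in controls (-0.67 ± 0.28, adjusted p = 0.0533, edgeR), and it was called at -0.33 when E7 was left out (adjusted p = 0.0024), at -0.93 when E8 was (adjusted p = 0.0157) and at -0.80 when E9 was (adjusted p = 0.0458).

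The factors that mark breaks and limit resection were mixed, with 2 of 3 falling and 1 rising in HCC1937 and 2 falling in MDA-MB-231. The transcript offset left 1 falling and 1 rising in HCC1937 and 1 falling in MDA-MB-231, and the coding offset 1 rising and none falling in each line. RIF1, which acts with 53BP1 to protect ends (chr2:151409883-151508013, plus strand), had 7.85, 10.2 and 6.75 CPM in HCC1937 with extract, against 77.0, 86.9 and 87.2 CPM in controls, a 10.1-fold fall (log2 -3.34 ± 0.16, adjusted p = 7.43e-09, edgeR). In MDA-MB-231 RIF1 had 3.56, 4.99 and 5.05 CPM with extract, against 59.0, 62.9 and 63.3 CPM in controls, a 13.4-fold fall (-3.75 ± 0.17, adjusted p = 5.85e-09, edgeR). These values shrank to -0.12 in HCC1937 and -0.061 in MDA-MB-231 with the coding offset, and neither was called. TP53BP1, the gene of 53BP1, fell by 1.09 ± 0.30 in HCC1937 and by 1.02 ± 0.30 in MDA-MB-231, where E7 held 16.6 CPM beside 48.0 and 52.5 CPM in the other extract libraries, and the value without E7 was -0.66. TP53BP1 stood at 0.079 in HCC1937 with the coding offset. MDC1, the adaptor that binds phosphorylated histone H2AX, had 95.1, 88.9 and 88.9 CPM in HCC1937 with extract, against 57.8, 56.4 and 54.0 CPM in controls (0.70 ± 0.17, adjusted p = 0.0025, edgeR). In MDA-MB-231 MDC1 had 44.8 CPM in E7 and 78.8 and 76.1 CPM in the others, against 63.1, 60.7 and 65.7 CPM in controls (0.08 ± 0.17, adjusted p = 0.697, edgeR), and without E7 it rose (0.30, adjusted p = 1.83e-05).

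**Figure D2:**
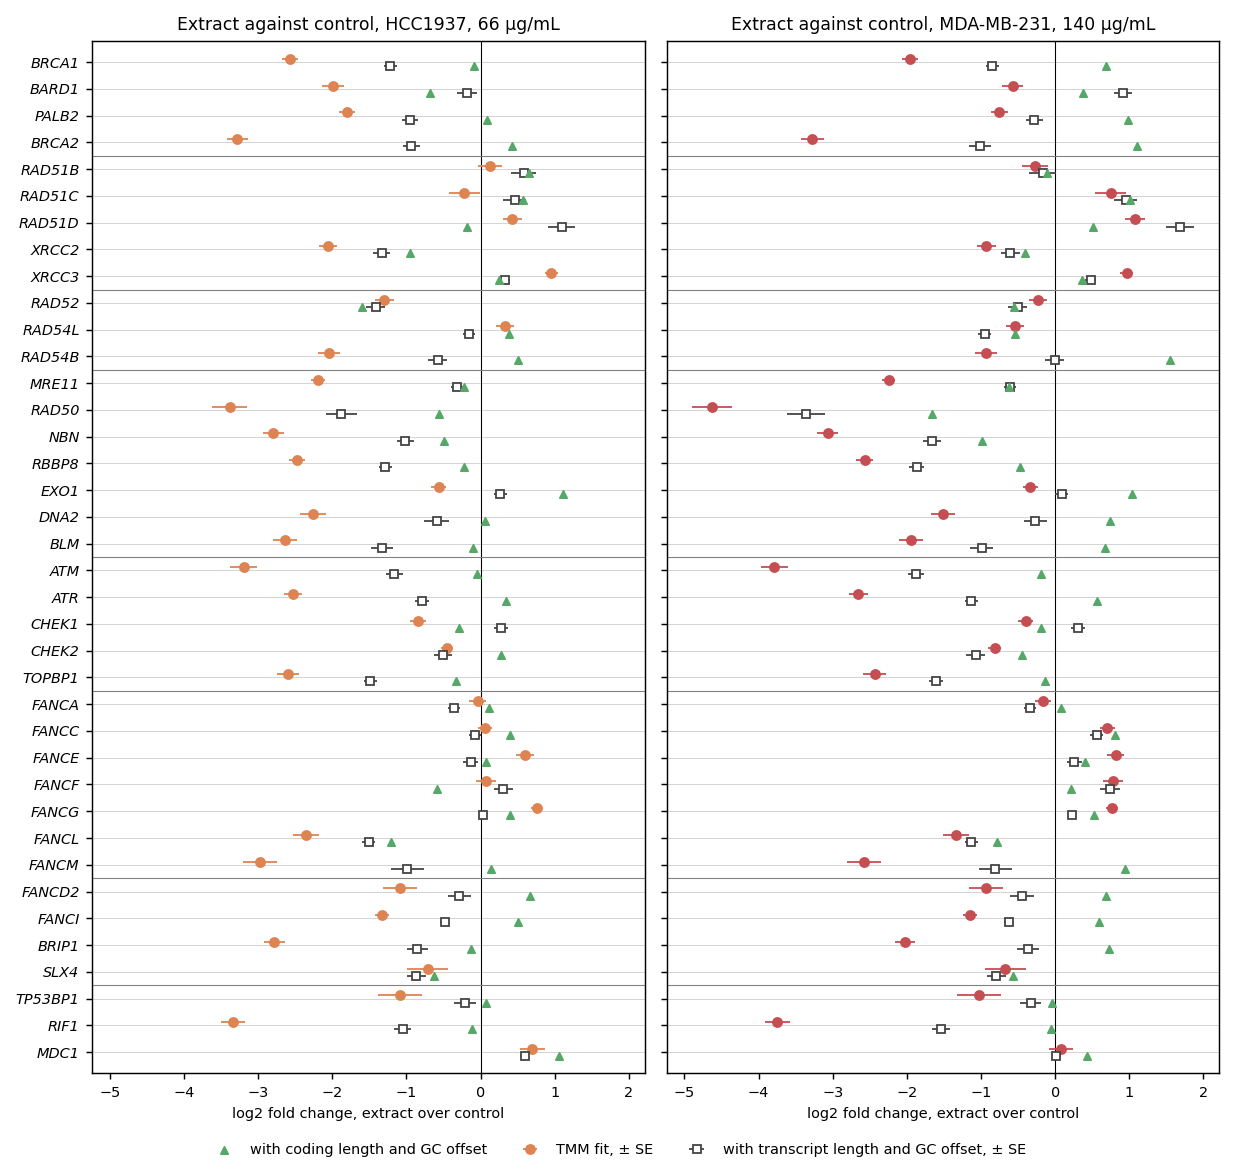
Log2 fold change of extract over control (horizontal axis) of the 38 genes in HCC1937 (left) and MDA-MB-231 (right), grouped by role from BRCA1 and partners at the top to the 53BP1 arm at the bottom. Filled circles are the TMM fit and open squares the fit with a transcript length and GC offset, both with SE, and triangles the fit with a coding length and GC offset. RAD50 is the lowest circle in each panel, at -3.38 in HCC1937 and -4.63 in MDA-MB-231, and most triangles lie to the right of their circles, many of them above 0.

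The size of the change followed GC content. Of the 17 members with at most 42% GC in their longest transcript, all 17 fell in each line, with a median log2 fold change of -2.57 in HCC1937 and -2.25 in MDA-MB-231. Of the 13 members with over 42% and up to 50% GC, 9 fell and 1 rose in HCC1937 and 8 fell and 3 rose in MDA-MB-231. Of the 8 members with over 50% GC, 1 fell and 5 rose in HCC1937 (median 0.47), and 1 fell and 4 rose in MDA-MB-231 (median 0.39). The shares of all genes tested that fell or rose in these GC classes were not counted. The class counts therefore do not set the members apart from other genes of like GC content. Across the 38 genes the log2 fold change and GC content had a Pearson r of 0.82 and a Spearman rho of 0.84 in HCC1937, and 0.67 and 0.77 in MDA-MB-231. Across the 14030 tested genes with an annotated length and GC content these values were 0.50 and 0.55 in HCC1937 and 0.44 and 0.47 in MDA-MB-231. The genes share the same libraries, so these figures describe the data and carry no p. With transcript length the members had a Pearson r of -0.46 in HCC1937 and -0.56 in MDA-MB-231. The members are longer and poorer in GC than the tested genes as a whole, with a median of 4704.5 nt against 3378.5 nt and of 42.5% against 49.3% GC.

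A smooth surface of transcript length and GC content took up 34.0% of the variance of the log2 fold changes over all genes in HCC1937 and 30.1% in MDA-MB-231. A surface of coding length and coding GC took up 31.4% in HCC1937 and 31.8% in MDA-MB-231, and both surfaces together 38.4% in HCC1937 and 38.1% in MDA-MB-231. The fits by transcript and by coding sequence take up like shares of the variance and still give the repair genes different medians: -0.54 and 0.07 in HCC1937, and -0.48 and 0.37 in MDA-MB-231. RAD51D is a case where the annotation matters, since its longest transcript has 9988 nt and its coding sequence only 1044 nt. The part that composition plays in the fall of these genes beyond these fits was not tested.

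**Figure D3:**
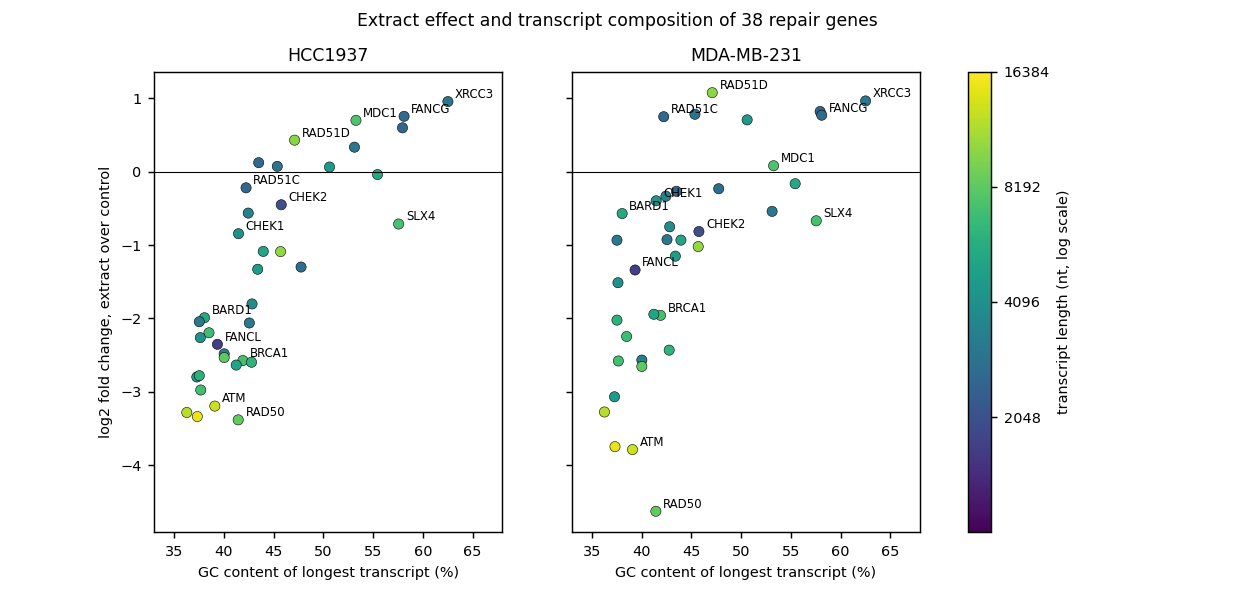
Log2 fold change of extract over control (vertical axis) against the GC content of the longest transcript in percent (horizontal axis) for the 38 genes in HCC1937 (left) and MDA-MB-231 (right). Colour gives transcript length on a log scale. Genes with at most 42% GC all lie below 0, and XRCC3, the richest in GC at 62.5%, lies near 1 in both panels.

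Whether the extract acted differently in the lines was tested as the difference of the effects, HCC1937 minus MDA-MB-231. It was called for 18 of 38 members, 15 with a lower value in HCC1937 and 3 with a higher one, while 20.6% of all genes tested were called lower and 11.5% higher. The median difference over the members, -0.17, was that of all genes tested, -0.16. BARD1 differed most, with -1.99 in HCC1937 and -0.57 in MDA-MB-231, a difference of -1.42 ± 0.21 (adjusted p = 0.00036, edgeR). XRCC2 differed by -1.14 ± 0.18 (adjusted p = 0.000568), RAD54B by -1.11 ± 0.20 (adjusted p = 0.0017), RAD52 by -1.07 ± 0.18 (adjusted p = 0.000882) and PALB2 by -1.05 ± 0.16 (adjusted p = 0.0006), all lower in HCC1937 in edgeR's test. BRCA1 differed by -0.62 ± 0.15 (adjusted p = 0.00943, edgeR). RAD50 and RAD54L went the other way: RAD50 fell less in HCC1937, with a difference of 1.25 ± 0.35 (adjusted p = 0.0179, edgeR), and RAD54L was higher there by 0.87 ± 0.17 (adjusted p = 0.00268). BRCA2, XRCC3 and FANCG had differences of -0.01 ± 0.35, -0.01 ± 0.12 and -0.02 ± 0.11, none of which passed.

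Of the 18 calls, 12 held when any of the 12 libraries was left out, and those of BLM, CHEK1, CHEK2, DNA2, RAD51C and RAD51D were lost without at least 1 of them, at values of -0.51 to -0.73 for BLM, -0.38 to -0.45 for CHEK1, 0.34 to 0.37 for CHEK2, -0.54 to -0.79 for DNA2, -0.90 to -0.99 for RAD51C and -0.53 to -0.63 for RAD51D. BLM was lost without E1, E2, E3, E9, E25, E26, E27, E31 or E32, and DNA2 without any library other than E7 and E32. CHEK1 was lost without E1, E2, E26, E27, E32 or E33, and CHEK2 without E2, E3, E25, E26, E27 or E32. RAD51C was lost without E1, E2, E3, E25, E26, E27, E31 or E32, and RAD51D without E1, E2, E25, E26 or E31. Without E7, 27 members were called for the difference, 22 lower and 5 higher, beside 33.3% and 24.7% of all genes. The calls gained were those of ATM and MDC1, higher in HCC1937, and of EXO1, FANCD2, FANCE, FANCI, SLX4, TOPBP1 and TP53BP1, lower in HCC1937. Calls of the same direction in all 3 fits were those of BRCA1, PALB2, BARD1, RAD52, RAD54B, XRCC2 and FANCC, lower in HCC1937, and of RAD50, RAD54L and CHEK2, higher in HCC1937. The count of calls moved with the transcript offset to 9 lower and 9 higher (20.9% and 18.6% of all genes), and with the coding offset to 13 lower and 7 higher (19.7% and 17.7%).

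The second comparison set HCC1937 controls against MDA-MB-231 controls, the line with a BRCA1 mutation against a line without one. HCC1937 had more of 17 members and less of 8, and 13 did not pass, while 38.7% of all genes tested were higher and 36.7% lower. The median log2 fold change was 0.31 over the members and 0.04 over all genes. In 24 members every HCC1937 control lay above every MDA-MB-231 control, in 11 below, and in 3 they overlapped, against 45.3% and 43.0% of all genes. Relative to genes of like transcripts 20 were higher and 10 lower (38.7% and 42.7% of all genes), and relative to genes of like coding sequence 18 and 11 (38.5% and 42.3%). BRCA1 itself averaged 73.2 ± 4.02 CPM in HCC1937 controls and 39.1 ± 1.83 CPM in MDA-MB-231 controls (log2 0.91 ± 0.10, adjusted p = 8.19e-06, edgeR), so the line with the mutation had more BRCA1 reads.

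The largest values in favour of HCC1937 were those of XRCC2, BRCA2, PALB2, FANCL and RAD51D. XRCC2 had 24.0, 23.4 and 23.5 CPM in HCC1937 controls, against 7.89, 8.54 and 8.53 CPM in MDA-MB-231 controls (log2 1.5 ± 0.12, adjusted p = 3.07e-07, edgeR). BRCA2 was higher by 1.42 ± 0.13 (adjusted p = 8.39e-07), PALB2 by 1.40 ± 0.11 (adjusted p = 3.58e-07), FANCL by 1.13 ± 0.16 (adjusted p = 5.71e-05) and RAD51D by 1.00 ± 0.14 (adjusted p = 3.29e-05) in the same edgeR test. None of their control libraries overlapped. CHEK2, TOPBP1, RAD52, BRIP1, RAD54L, FANCC, EXO1, BLM, RBBP8, RIF1 and FANCF were also higher in HCC1937, by 0.42 to 0.95.

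The largest values in favour of MDA-MB-231 were those of ATM, FANCI, FANCE, MRE11 and FANCG. ATM had 36.9, 39.1 and 35.1 CPM in HCC1937 controls, against 113, 130 and 134 CPM in MDA-MB-231 controls, 3.38-fold lower in HCC1937 (log2 -1.76 ± 0.16, adjusted p = 1.22e-06, edgeR). The log2 value was -1.37 ± 0.09 for FANCI (adjusted p = 8.3e-08), -1.17 ± 0.12 for FANCE (adjusted p = 2.78e-06), -0.86 ± 0.08 for MRE11 (adjusted p = 2.07e-06) and -0.85 ± 0.08 for FANCG (adjusted p = 1.23e-06) in edgeR's test. FANCI and FANCD2, whose proteins form a pair, thus stood apart, FANCD2 at 0.38 ± 0.23 (adjusted p = 0.151). In the MRE11, RAD50 and NBN complex, RAD50 was at 0.45 ± 0.21 and NBN at -0.11 ± 0.13, and neither passed. DNA2 (-0.56), BARD1 (-0.38) and FANCA (-0.32) were also lower in HCC1937. The calls of BARD1, FANCA, FANCF and RIF1 were lost without E1, E2, E3, E25 or E27, depending on the gene, at values of -0.33 to -0.40 for BARD1, -0.29 for FANCA, 0.30 to 0.37 for FANCF and 0.41 for RIF1. Without E7, FANCD2 (0.35), RAD50 (0.42), SLX4 (0.18) and TP53BP1 (0.11) were also called higher, and MDC1 (-0.21), NBN (-0.15) and XRCC3 (-0.21) lower. Medium and every other difference between the lines move with this comparison.

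**Figure D4:**
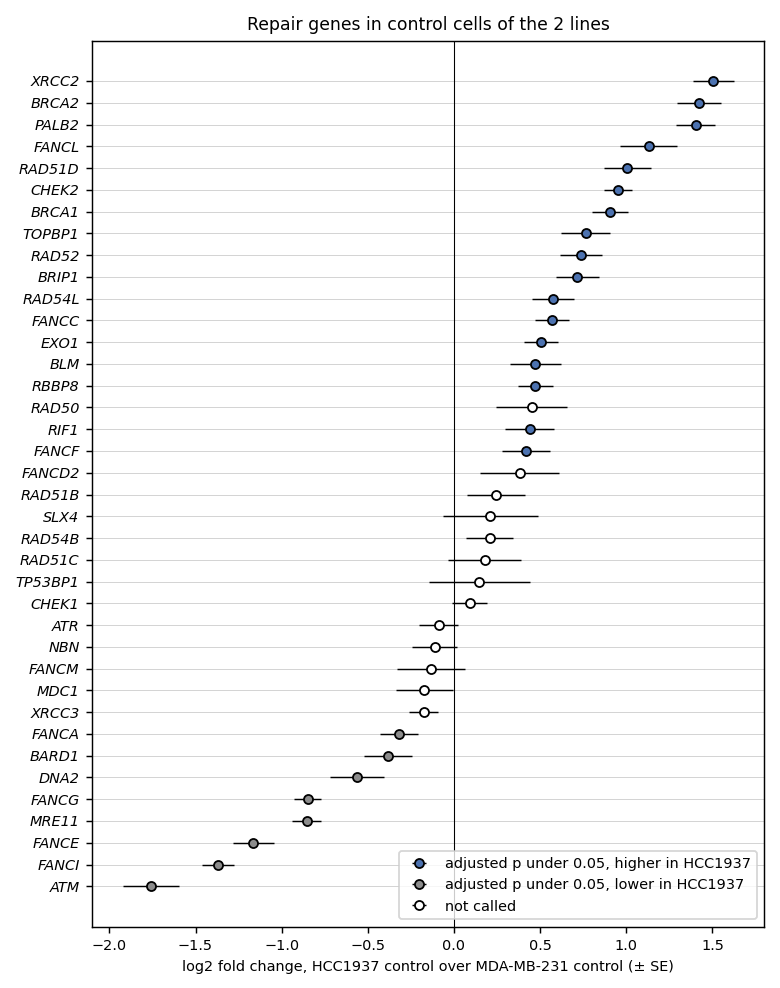
Log2 fold change of HCC1937 controls over MDA-MB-231 controls (horizontal axis, ± SE) for the 38 genes, ordered by size. Filled points passed an adjusted p of 0.05 and open points did not. XRCC2, BRCA2 and PALB2 are at the top, above 1.40, and ATM is at the bottom, at -1.76.

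Levels of different genes can be compared only per length, here as CPM per kilobase of the longest transcript. In HCC1937 controls FANCL was highest at 33.4, followed by TOPBP1 at 21.2, FANCD2 at 20.9 and CHEK2 at 18.0, and with extract the order was led by FANCG at 23.0, XRCC3 at 16.9 and RAD54L at 16.5. FANCL stood at 6.55 there. In MDA-MB-231 controls FANCI was highest at 27.4 and FANCG next at 24.6, and with extract FANCG led at 41.9, followed by FANCE at 20.4 and XRCC3 at 19.2. At the other end with extract were FANCM at 0.233, ATM at 0.308 and BRCA2 at 0.348 in HCC1937, and BRCA2 at 0.127, RAD50 at 0.202 and RIF1 at 0.302 in MDA-MB-231. The per-length level of RAD51D, the lowest in both controls, depends on its long annotated transcript.

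Other genes of the same pathways were counted from lists that do not contain the 38. Of 20 other recombination factors, 11 fell and 5 rose in HCC1937, and 10 fell and 5 rose in MDA-MB-231. With the transcript offset 9 fell and 6 rose in HCC1937, and 8 fell and 9 rose in MDA-MB-231, where the median turned to 0.15, against -0.45 without the offset. RPA2, a subunit of the single-strand binding protein, rose by 1.21 in HCC1937 and 1.16 in MDA-MB-231, while RAD51AP1 fell by 2.25 in HCC1937 and by 1.43 in MDA-MB-231. Of 15 other Fanconi factors, 6 fell and 7 rose in HCC1937, and 5 fell and 7 rose in MDA-MB-231. USP1, which removes ubiquitin from FANCD2, fell by 2.61 in HCC1937 and by 2.08 in MDA-MB-231, and RAD18, another ubiquitin ligase, fell by 1.84 in HCC1937 and by 2.05 in MDA-MB-231, while the core complex partner FAAP100 rose by 1.00 in HCC1937 and 0.98 in MDA-MB-231. Of 12 junction nuclease and dissolution genes, 8 fell and 3 rose in HCC1937, and 5 fell and 3 rose in MDA-MB-231, and TOP3A rose in each line. Of 22 break signalling genes, 9 fell in each line and 7 rose in HCC1937 and 8 in MDA-MB-231. The transcript offset gave 5 fallen and 6 risen Fanconi factors in HCC1937 and 4 and 6 in MDA-MB-231, 9 and 1 junction genes in HCC1937 and 8 and 1 in MDA-MB-231, and 8 and 6 break signalling genes in HCC1937 and 10 and 5 in MDA-MB-231.

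Repair routes outside recombination had their own splits. Of 12 end joining genes, 5 fell in each line, and 5 rose in HCC1937 and 4 in MDA-MB-231. LIG4, the ligase of end joining, fell in each line (log2 -2.70 in HCC1937 and -3.14 in MDA-MB-231), and POLQ, the polymerase of microhomology end joining, fell by 2.65 in HCC1937 and by 2.75 in MDA-MB-231, whereas XRCC6, the gene of Ku70, rose by 1.09 in HCC1937 and 0.69 in MDA-MB-231. Of 7 mismatch repair genes, 5 fell in each line and 2 rose in MDA-MB-231, and of 12 nucleotide excision repair genes, 6 fell and 4 rose in HCC1937, and 5 fell and 2 rose in MDA-MB-231. Of 12 p53 target genes, 5 fell and 6 rose in HCC1937, and 4 fell and 6 rose in MDA-MB-231. With the transcript offset 5 end joining genes fell and 5 rose in each line, and of the mismatch repair genes 3 fell in each line, with 1 risen in HCC1937 and 2 in MDA-MB-231. Of the excision repair genes 5 then fell and 6 rose in HCC1937, where the median turned to 0.20, against -0.51 without the offset, and 6 fell and 5 rose in MDA-MB-231. Of the p53 targets 3 then fell and 5 rose in HCC1937, and 4 fell and 3 rose in MDA-MB-231. Genes of DNA replication moved the other way from most of the 38. Of 21 S phase genes, 15 rose and 1 fell in HCC1937 and 19 rose and 1 fell in MDA-MB-231, with the transcript offset 16 and 18 rose, and their summed level was 4529 to 4549 CPM in HCC1937 with extract, against 2712 to 2774 CPM in controls. In MDA-MB-231 it was 2878 to 2881 CPM with extract, against 1692 to 1727 CPM in controls. Of 15 mitosis genes, 9 fell and 5 rose in HCC1937, and 8 fell and 5 rose in MDA-MB-231, and with the transcript offset 9 fell and 4 rose in HCC1937 and 9 fell and 5 rose in MDA-MB-231. The part of cell cycle phase in the repair gene results was not tested.

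Promoters of 34 of the 38 genes were in the RefSeq set, as 46 windows of 300 bases each, which run from 250 bases before the annotated start of transcription into the first 50 bases after it (GRCh38.p14). Of these windows 69.6% hold GGGCGG (the GC box), 43.5% hold CCAAT (the CCAAT box) and 8.70% hold TTTNGCGC (an E2F-like motif), each searched on both strands and with no overlap between the motifs required or excluded. Over all 35116 windows of the set the shares were 45.0%, 34.6% and 1.79%. The 27 windows of 21 members that fell in both lines had a median GC content of 62.7%, with a range of 48% to 73.7%. The 5 windows of the 4 members that rose in both had a median of 70.3%, with an overlapping range of 64.3% to 76%. Over all windows the median was 58.7%. A match of letters is a description of the sequence and says nothing of binding. The windows of PALB2, MRE11 and XRCC3 are shown as examples of a repair gene that starts close to a neighbour transcribed in the opposite direction, 5′ to 3′ on the strand of the repair gene, with the letters of these motifs in capitals and the start of transcription at base 251. The windows of PALB2 and MRE11 reach past the start of the neighbour.
PALB2, chr16:23641261-23641560, minus strand: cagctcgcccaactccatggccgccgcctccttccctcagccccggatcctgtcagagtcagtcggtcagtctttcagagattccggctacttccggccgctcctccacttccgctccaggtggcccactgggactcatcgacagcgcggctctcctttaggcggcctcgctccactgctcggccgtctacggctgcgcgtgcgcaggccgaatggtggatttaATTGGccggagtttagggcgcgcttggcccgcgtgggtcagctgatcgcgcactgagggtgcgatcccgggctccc
MRE11, chr11:94493795-94494094, minus strand: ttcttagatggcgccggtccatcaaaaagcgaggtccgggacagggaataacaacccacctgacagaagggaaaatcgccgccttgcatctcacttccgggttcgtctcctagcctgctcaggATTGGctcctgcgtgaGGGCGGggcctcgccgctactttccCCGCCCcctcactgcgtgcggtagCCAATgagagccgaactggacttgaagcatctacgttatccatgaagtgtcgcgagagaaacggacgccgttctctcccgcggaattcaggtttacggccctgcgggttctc
XRCC3, chr14:103715402-103715701, minus strand: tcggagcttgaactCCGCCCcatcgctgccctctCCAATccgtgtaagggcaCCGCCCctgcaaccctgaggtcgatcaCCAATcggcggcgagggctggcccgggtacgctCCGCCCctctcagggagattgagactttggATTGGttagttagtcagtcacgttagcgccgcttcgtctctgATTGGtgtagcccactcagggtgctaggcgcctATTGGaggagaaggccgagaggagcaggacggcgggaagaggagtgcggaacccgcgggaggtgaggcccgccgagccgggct

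Neighbours that start within 1000 bases of a member and run the other way were found for 9 members, a distance chosen after the values were seen. Each distance is the shortest between any annotated starts of the pair, which need not be the starts mainly used. PALB2 and DCTN5, a dynactin subunit gene, start 156 bases apart. PALB2 fell in each line, and DCTN5 rose to 215 CPM in HCC1937 with extract, against 143 CPM in controls (log2 0.59 ± 0.09, adjusted p = 7.18e-05, edgeR), and to 131 CPM in MDA-MB-231 with extract, against 81.9 CPM in controls (0.68 ± 0.09, adjusted p = 3.02e-05). CHEK2 and HSCB, a gene of iron-sulphur cluster assembly, start 212 bases apart and also went opposite ways, HSCB rising by 0.62 in HCC1937 and 0.77 in MDA-MB-231. HSCB stood at -0.083 in HCC1937 with the transcript offset. ATM and NPAT, a histone gene activator, start 429 bases apart and fell together, NPAT at -3.12 in HCC1937 and -3.57 in MDA-MB-231. Of these neighbours, DCTN5 has a longest transcript of 11011 nt with 45.7% GC, beside 4003 nt and 42.8% in PALB2. ANKRD49, which starts 140 bases from MRE11, fell in HCC1937 (-1.92, adjusted p = 0.000193, edgeR) and did not pass in MDA-MB-231 (-0.45, adjusted p = 0.24). ZFYVE21, which starts 359 bases from XRCC3, passed in neither line, at -0.07 in HCC1937 and 0.15 in MDA-MB-231. NBR1, an autophagy receptor gene, starts 82 bases from the nearer of 2 annotated BRCA1 starts. Which of these starts gave the BRCA1 reads was not tested, so a shared promoter is not shown. NBR1 fell in each line, by 0.66 in HCC1937 and by 0.72 in MDA-MB-231. DNASE1, a nuclease gene that starts 154 bases from SLX4, fell by 1.74 in HCC1937 and by 1.01 in MDA-MB-231. MAP1A, 314 bases from TP53BP1, did not pass in HCC1937 (0.30) and rose in MDA-MB-231 (0.84, adjusted p = 0.043, edgeR), with group means of at most 1.53 CPM. TF, 57 bases from TOPBP1, passed in neither line, with group means of at most 0.502 CPM.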

How the data were processed

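RNA-seq of 12 libraries in 4 groups of 3 was used as deposited. Per the submitters' processing notes, reads passed FastQC 0.12.1 and fastp 0.23.4, Salmon 1.10.3 estimated expression on GRCh38, and the authors tested with DESeq2 in R 4.4.1. Per the labels' protocols, messenger RNA was taken with poly-T beads, and the kit named is TruSeq Stranded Total RNA. The authors deposited expected counts (estimated reads per gene), not scaled for depth. For the annotation release and the summing of transcripts to genes, the sources used here give nothing. Of the values, 52.8% were not whole and were rounded.

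The tests used edgeR 4.0.16 (R 4.3.3): filterByExpr on the 4 groups, TMM, a single model of 4 groups on 12 libraries, the quasi-likelihood test and Benjamini-Hochberg adjustment over 14133 genes. Length and GC content came from GENCODE 29, from the longest transcript or its coding part, for 14030 tested genes, and the offset was a smooth surface per library (mgcv 1.9.3). Alternatives were DESeq2 1.42.0, limma 3.58.1 with voom and quality weights, 2 other scalings, no filter, unrounded counts, a fit on only the groups compared, and leaving out each library. The fits were tested on simulated data. Per library 3 counts are 0.099 to 0.213 CPM, a limit that covers counting error only. The members and lists were chosen with earlier results of these data known. All 38 members may be named, with per-library values for those with the largest changes in each role. From each other list at most 2 genes per direction and comparison are named, by p. Some genes of the lists are not reported here.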

Additional observations from a re-analysis of the deposited data

Results flagged for a closer look

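The extract effect of 18 of the 38 repair genes differed between the lines by edgeR's test of the difference, HCC1937 minus MDA-MB-231, at an adjusted p under 0.05 over all genes. Of all genes tested, 20.6% were called lower in HCC1937 and 11.5% higher. The value was lower in HCC1937 for BRCA1 (-0.62 on the log2 scale), PALB2 (-1.05), BARD1 (-1.42), RAD51C (-0.97), RAD51D (-0.65), RAD52 (-1.07), RAD54B (-1.11), XRCC2 (-1.14), CHEK1 (-0.45), BLM (-0.69), DNA2 (-0.75), FANCC (-0.64), FANCF (-0.71), FANCL (-1.01) and BRIP1 (-0.76). It was higher in HCC1937 for RAD50 (1.25), RAD54L (0.87) and CHEK2 (0.36). The calls of BLM, CHEK1, CHEK2, DNA2, RAD51C and RAD51D were lost without at least 1 library. In all 3 fits, that is also with either offset, 7 members were called lower and 3 higher. Line, medium and extract concentration (66 µg/mL in HCC1937 and 140 µg/mL in MDA-MB-231) cannot be told apart in these differences.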

How the results depend on the processing

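Counts are given as members that fell and rose with extract, or that were called lower and higher. With the transcript length and GC offset the difference of effects was called lower for 9 and higher for 9 members (15 and 3 without it), BARD1 (0.92), CHEK1 (0.31) and EXO1 (0.086) reversed in MDA-MB-231, and RAD51C (0.46), RAD54L (-0.16), CHEK1 (0.27), EXO1 (0.26) and FANCE (-0.13) in HCC1937, as did SLX4 between the controls (-0.33). The coding length and GC offset was chosen after seeing the data. With it 11 fell and 14 rose in HCC1937 (27 and 6 without), 10 fell and 20 rose in MDA-MB-231 (26 and 7 without), and 7 were higher for the difference. In HCC1937 it reversed BRCA2 (0.42), PALB2 (0.089), RAD51C (0.57), RAD51D (-0.19), RAD54B (0.51), ATR (0.34), CHEK2 (0.28), EXO1 (1.11), DNA2 (0.065), FANCD2 (0.67), FANCF (-0.59), FANCI (0.50), FANCM (0.14) and TP53BP1 (0.079). In MDA-MB-231 it reversed BRCA1 (0.68), BRCA2 (1.1), PALB2 (0.99), BARD1 (0.37), RAD54B (1.55), ATR (0.56), EXO1 (1.03), BLM (0.67), DNA2 (0.73), FANCD2 (0.68), FANCI (0.59), FANCM (0.94) and BRIP1 (0.72). The cause was not tested. The difference was called higher for 5 members with DESeq2 size factors and for 5 with DESeq2. Leaving out each library in turn gave 26 to 28 fallen and 4 to 6 risen members in HCC1937, 25 to 27 and 7 to 8 in MDA-MB-231, 10 to 22 lower and 2 to 5 higher for the difference, and 6 to 11 lower and 15 to 21 higher between the controls. The most calls for the difference, 22 lower and 5 higher, came without E7. The other alternatives, which were upper quartile scaling, no filter, limma-voom, unrounded counts and a fit on only the groups compared, kept all these counts within 1.5 times and reversed no member. The difference of effects needs all 12 libraries and has no value in the last of these. Plain CPM by library total moved 109 of the 152 group levels by more than the SD. No paired analysis was possible because the groups share no replicate numbers. Estimated counts of 3 per library correspond to at most 0.213 CPM, below every library of every member.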

Other observations

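Of the genes outside the 38, SHLD2 and RADX, both factors that act on resected or stalled DNA, were nearly silent in HCC1937. SHLD2, a shieldin subunit that acts downstream of 53BP1, averaged 0.0611 CPM in HCC1937 controls and 26.3 CPM in MDA-MB-231 controls. RADX, which binds single-stranded DNA at forks, had no reads in HCC1937 controls and averaged 19.2 CPM in MDA-MB-231 controls. SHLD2 has near-identical copies in the genome among which reads can be split, so its level is uncertain.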
